A study of Sus scrofa with 2 samples.

Results

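The genes of oxidative phosphorylation were described in nuclei of pig kidney cortex before and after ex vivo perfusion. The members were chosen by symbol from the 31908 rows of the deposited annotation. They were the 13 protein-coding genes of mitochondrial DNA and the nuclear genes whose symbols begin with NDUFA, NDUFB, NDUFC, NDUFS, NDUFV, UQCR, COX4 to COX8 or ATP5, with SDHA to SDHD, and without the NDUFAF assembly factors. This gave 77 genes, 13 mitochondrially encoded and 64 nuclear encoded. Of the mitochondrially encoded members, 7 belong to complex I, 1 to complex III, 3 to complex IV and 2 to complex V. Of the nuclear encoded members, 28 belong to complex I, 3 to complex II, 5 to complex III, 15 to complex IV and 13 to complex V. All 13 mitochondrially encoded and 60 of the 64 nuclear encoded members had at least 100 UMIs (unique molecular identifiers, tags that each mark 1 captured RNA molecule) over both libraries. The other 4, COX6B2, NDUFS8, NDUFA4L2 and COX4I2, had between 6 and 79. Members whose row carries an identifier but no symbol, SDHA among them, are not in these counts.

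Oxidative phosphorylation makes most of the ATP of the renal tubule. Complexes I to IV of the inner mitochondrial membrane pass electrons from NADH and succinate to oxygen. Complexes I, III and IV pump protons, and complex V, the ATP synthase, uses the proton gradient. Complexes I, III, IV and V join subunits made from mitochondrial DNA with subunits made from nuclear genes, and complex II is wholly nuclear encoded. Mitochondrial DNA is transcribed inside the organelle, so its RNA is not RNA of the nucleus even where it is counted with nuclei. The proximal tubule, the thick ascending limb, the distal convoluted tubule and the intercalated cells are the segments known for many mitochondria.

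The study asked how kidney cells respond to the mechanical load of raised glomerular pressure. Pig kidneys from a slaughterhouse were flushed with heparinised buffer, kept cold and perfused ex vivo at raised pressure with a warm salt solution that held neither albumin nor red cells. Cortex taken before perfusion made the unperfused library and cortex taken at its end made the perfused library, both as snap-frozen tissue from which nuclei were isolated. With 1 library of each condition there was no test, and the effects of warming, perfusate and pressure cannot be told apart. It is not stated if the pieces of cortex were from the same animal. The unperfused library held 34415254 UMIs in 7179 barcodes and the perfused library 35525592 in 6205, of which 6389 and 5421 nuclei passed the filters, with medians of 3755 and 4383 UMIs. UMIs of the members were summed over nuclei of a class and divided by all UMIs of that class, in counts per 1000000 UMIs (CPM). A log2 ratio is perfused over unperfused CPM. Exact 95% intervals are given throughout. They hold the error of counting and nothing of how kidneys, pieces of tissue or preparations vary, and they are too narrow where the UMIs of a gene lie in few nuclei. Because CPM are shares of a class total, less RNA of other genes and more RNA of a member cannot be told apart.

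Nuclei were clustered without the members, and 13 classes were named from fixed markers, leaving 3 of 21 clusters unnamed. In the collecting duct these are PC (principal cells), IC-A and IC-B (intercalated cells), and along the tubule PT (proximal tubule), injured PT, LOH (loop of Henle), DCT (distal convoluted tubule) and CNT (connecting tubule). The others are EC (endothelium), STROMA (stroma), IMM (immune cells), PODO (podocytes) and cycling cells. Each name means that the nuclei resemble that type in its markers. In PT, LOH, PC, IC-A, IC-B and EC, the markers of the class itself had a higher summed level than those of any other listed type in both libraries. The name of IMM holds less well. Its 9 immune markers summed to 3335 CPM before and 2528 after perfusion, and in these same nuclei the 12 stromal markers summed to 1367 and 2813 CPM and the 9 endothelial markers to 2979 and 3190. All of those markers had UMIs in both libraries. The IMM nuclei were also the shallowest class, with medians of 1320 and 1418 UMIs. STROMA held 593.5 and 1383 CPM of immune markers beside 5253 and 5553 CPM of its own.

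In the cortex as a whole, the mitochondrially encoded set was higher in the perfused library and the nuclear encoded set differed little. The 13 mitochondrially encoded members summed to 1136 CPM in 6389 unperfused nuclei (30334 UMIs) and to 3011 CPM in 5421 perfused nuclei (81618 UMIs). This is a log2 ratio of 1.41 (1.39 to 1.42). The 64 nuclear encoded members summed to 2772 and 2851 CPM, for a log2 ratio of 0.04 (0.03 to 0.06) that turned negative when the 13 classes were weighted equally (-0.02). Summed over all nuclei, the sets that build the same complexes thus differed between the libraries by unlike amounts.

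Much of the mitochondrial sum in the perfused library lay in few kinds of nuclei. IMM and STROMA made up 10.7% of the unperfused nuclei and held 23.7% of the mitochondrial UMIs of the members (23.2% to 24.2%). They made up 25.6% of the perfused nuclei and held 68.1% (67.8% to 68.4%). Of the nuclear encoded UMIs, the same classes held 7.92% and 24.7%. Outside IMM and STROMA, the mitochondrial set was at 930.4 and 1134 CPM, for a log2 ratio of 0.29 (0.26 to 0.31), and the nuclear set at 2738 and 2534 CPM, for a log2 ratio of -0.11 (-0.13 to -0.10). The difference between the libraries was thus smaller there for the mitochondrial set and of opposite sign for the nuclear set. Per nucleus, the median mitochondrial share of UMIs was 0.0760% before and 0.117% after perfusion, and the 90th percentile was 0.285% and 1.45%. In the perfused library, 749 nuclei had over 1% mitochondrial UMIs, and these 13.8% of its nuclei held 59.2% of its mitochondrial UMIs. In the unperfused library it was 135 nuclei (2.11%) with 21.7%.

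**Figure D1:**
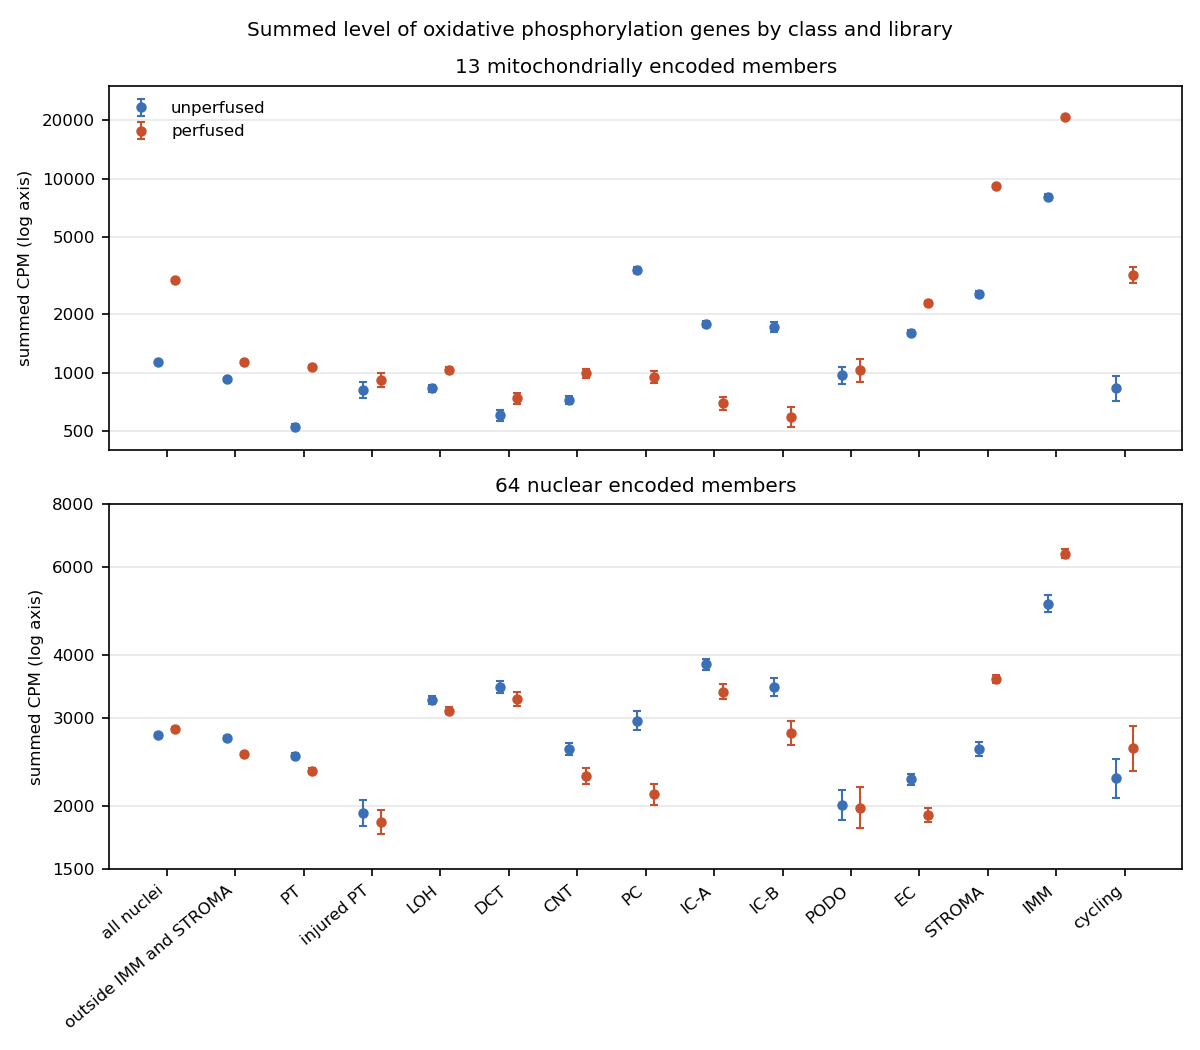
Summed CPM of the mitochondrially encoded members (top) and the nuclear encoded members (bottom) in all nuclei, outside IMM and STROMA and in each named class, on log axes, with points for the unperfused and the perfused library and exact 95% Poisson intervals. The mitochondrial set was higher in the unperfused library in PC, IC-A and IC-B and highest in IMM in both libraries (8087 and 20775 CPM).

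The mitochondrial set was higher in the perfused library in 10 of the 13 classes. It was higher in 7 of 12 with free RNA subtracted, where injured PT (-0.30) and PODO (-0.01) were below 0 and DCT gave no value. A lineage filter dropped every nucleus in which a marker of a different lineage had a UMI and left no ratio for cycling nuclei. Under it the set was higher in 8 of 12, among them CNT and IMM with intervals that included 0. PODO, 1 of the 12, was left with 2 unperfused and 1 perfused nuclei, at -1.67 (-4.19 to 0.33). In PT, which reabsorbs most of the filtered load, the mitochondrial set was at 528.4 CPM in 1778 unperfused and 1071 CPM in 1203 perfused nuclei, a log2 ratio of 1.02 (0.97 to 1.07). The difference was spread over PT nuclei. When the clustering was made finer, the 4 PT clusters had log2 ratios of 1.20, 1.25, 0.69 and 1.09, and the median share per nucleus was 0.0483% and 0.0731%. In the perfused library, 17 PT nuclei over 1% held 17.5% of the mitochondrial UMIs of the class, and without the top 5% of nuclei in each library the ratio was 0.72. After thinning to 1000 UMIs per nucleus, for which 1767 unperfused and 1179 perfused PT nuclei were deep enough, 41.6% (39.3% to 43.9%) and 57.6% (54.7% to 60.4%) had a mitochondrial UMI. Without thinning it was 91.1% and 98.0%. Free RNA was estimated in each class from those of the tubule genes LRP2, CUBN, SLC12A1 and UMOD that the class should lack, against the profile of the whole library. It was at 8.77% and 4.60% of PT UMIs, and with it subtracted the ratio in PT was 1.06. The whole unperfused library held 0.116% mitochondrial UMIs and the perfused 0.304%, against 1.235% and 1.516% in their barcodes with under 500 genes. Free mitochondrial RNA itself was not measured in any class, so the subtraction does not show how much of it remained.

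The other tubule segments that keep the sign of PT differed less. LOH, which holds the thick ascending limb, was at 831.7 and 1038 CPM, for a log2 ratio of 0.32 (0.25 to 0.39). Its 2 finer clusters were at 0.40 and 0.09, the second with an interval that included 0 (-0.02 to 0.20). DCT was at 603.8 and 738.4 CPM (0.29, 0.15 to 0.43) and CNT at 725.7 and 994.5 CPM (0.45, 0.35 to 0.56). In CNT, 2 of 223 perfused nuclei held 19.7% of the mitochondrial UMIs. The ratio was smaller still under some alternatives, at 0.21 in LOH with free RNA subtracted and 0.19 in DCT without the top 5% of nuclei. In CNT it was 0.14 under the lineage filter, with an interval that included 0 (-0.01 to 0.28). In injured PT (817.2 and 919.1 CPM) and in PODO (971.6 and 1030 CPM), the interval of the ratio included 0.

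The collecting duct showed the opposite. PC, which carry water and sodium channels, were at 3387 CPM in 176 unperfused and 952.6 CPM in 151 perfused nuclei, a log2 ratio of -1.83 (-1.95 to -1.71). IC-A, which secrete acid, were at 1782 CPM in 299 and 695.9 CPM in 134 nuclei, a log2 ratio of -1.36 (-1.48 to -1.24). IC-B, which secrete bicarbonate, were at 1730 CPM in 112 and 590.6 CPM in 60 nuclei, a log2 ratio of -1.55 (-1.74 to -1.36). The classes differ in how many nuclei carry this. In unperfused IC-A, 13 nuclei over 1% held 51.1% of the mitochondrial UMIs, and in unperfused IC-B 5 nuclei held 61.2%. With the top 5% of nuclei left out in each class and library, IC-A was at -0.64 and IC-B at -0.24, and with free RNA subtracted PC, IC-A and IC-B were at -2.09, -2.26 and -1.98. The medians per nucleus were 0.0661% and 0.0571% in IC-A and 0.0574% and 0.0448% in IC-B, closer together than the sums. In unperfused PC, 10 nuclei over 1% held 28.8%, the median was 0.108% against 0.0724% in perfused PC, the upper quartile 0.402% against 0.108%, and the ratio without the top 5% was -1.86. The same nuclei also differed in cytosolic ribosomal protein genes, which summed to 3372 and 1710 CPM in PC, 3646 and 2390 in IC-A and 2739 and 1689 in IC-B. The part of that in the result was not tested.

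After thinning to 1000 UMIs per nucleus, a mitochondrial UMI was found in 68.2% of unperfused (60.7% to 74.99%) and 56.7% of perfused PC nuclei (48.3% to 64.7%), and in 51.3% (45.5% to 57.2%) and 42.5% (34.0% to 51.4%) of IC-A nuclei. These intervals overlapped. In IC-B the shares were 42.3% (33.0% to 52.1%) and 50% (36.8% to 63.2%), which goes against its CPM, and no order was read from it. Without thinning, the shares were 93.2% and 94.7% in PC, 92.3% and 97.8% in IC-A and 86.6% and 93.3% in IC-B. The thinned shares for PC and IC-A thus lay in the order of their CPM, with overlapping intervals that by themselves test no difference. With nuclei thinned, the log2 ratio of the mitochondrial set was -1.37 in PC (-1.64 to -1.12) and -1.22 in IC-A (-1.54 to -0.92). In IC-B that ratio was -0.97 (-1.49 to -0.48).

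IMM had the highest mitochondrial set of any class in both libraries. EC were at 1613 and 2289 CPM, for a log2 ratio of 0.50 (0.44 to 0.57), with 0.50, 0.53 and 0.07 in 3 finer clusters and 0.19 under the lineage filter. STROMA was at 2541 CPM in 414 unperfused and 9156 CPM in 683 perfused nuclei, a log2 ratio of 1.85 (1.80 to 1.90), and IMM at 8087 CPM in 270 and 20775 CPM in 705 nuclei, a log2 ratio of 1.36 (1.31 to 1.41). The median share per nucleus was 0.135% and 0.692% in STROMA and 0.567% and 1.61% in IMM, so the middle of each class differed too. These ratios depended on which nuclei were removed. Without the top 5% of nuclei they were 1.99 in STROMA and 1.49 in IMM. In nuclei with at least 1000 UMIs they were 1.87 and 1.45. With a mitochondrial limit of 1% they were 1.26 in STROMA and 0.28 in IMM. With nuclei holding a marker UMI of another lineage left out, they were 1.05 and 0.25, the latter with an interval that included 0 (-0.03 to 0.52). Cycling nuclei, 38 and 21 in number, were at 832.8 and 3203 CPM (1.94, 1.69 to 2.20), where 2 perfused nuclei held 48.3% of the UMIs.

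Both IMM and STROMA were mixed in this respect. At the finer clustering, IMM split mainly into a cluster of 134 unperfused and 512 perfused nuclei that was then named STROMA, at 12676 and 27129 CPM (1.10), and a cluster of 112 and 187 nuclei named IMM, at 3473 and 5335 CPM (0.62). With nuclei of other classes, the first of these clusters held 153 and 555 nuclei. The members ATP6, COX3, CYTB and ND1 were among its 10 top genes, beside DCN and COL1A1. It was flagged for few UMIs, with a median of 1375, so its name holds less well. STROMA split into clusters at 1598 and 7552 CPM (2.24) and 2996 and 9429 CPM (1.65). Others were at 4312 and 8070 CPM (0.90), in 46 and 178 nuclei then named IMM, and at 9866 and 30253 CPM (1.62), in 15 and 32 nuclei. Every one of these clusters of IMM and STROMA was higher in the perfused library. Cytosolic ribosomal protein genes moved with them, at 18128 and 29305 CPM in IMM and 7391 and 14340 in STROMA, and red-cell genes were at 92.3 and 164.5 CPM in IMM. In STROMA the estimate of free tubule RNA was 27.6% before and 16.4% after perfusion, and in IMM 31.3% and 29.1%, and with it subtracted the ratios were 1.75 and 1.32. The part of the ribosomal protein and red-cell RNA in the result was not tested. The shallow nuclei with much mitochondrial RNA are those that a limit on mitochondrial UMIs removes, and with a limit of 1% in place of 7% the ratio over all nuclei was 0.55.

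The mitochondrially encoded members did not all differ alike. All of their coding RNA but that of ND6 comes from 1 strand of the mitochondrial genome as a long precursor. In all nuclei, COX3, the subunit III of cytochrome c oxidase, had 265.5 CPM before and 884.1 CPM after perfusion, a log2 ratio of 1.74. ATP6, the proton channel subunit of complex V, had 96.4 and 335.6 CPM (1.80), and COX2 had 180.8 and 570.9 CPM (1.66). These and ND3 (22.1 and 76.0 CPM, 1.78), CYTB of complex III (54.5 and 176.2 CPM, 1.69) and ND1 (31.7 and 95.7 CPM, 1.59) differed most. ND4 (41.6 and 96.7 CPM), COX1 (344.4 and 646.4 CPM) and ND2 (33.7 and 57.4 CPM) differed less, with log2 ratios of 1.22, 0.91 and 0.77. ND5 had 46.5 and 57.6 CPM (0.31). ATP8 (100 and 121 UMIs, 0.25, -0.14 to 0.65) and ND4L (96 and 129 UMIs, 0.40, 0.01 to 0.80) overlap ATP6 and ND4 in the mitochondrial genome, so how their UMIs were split from those is uncertain. ND6 was the member that was lower, at 12.1 CPM (322 UMIs) and 5.24 CPM (142 UMIs), a log2 ratio of -1.20 (-1.499 to -0.91). ND6 is the member read from the other strand.

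Of these 13 members, 9 were past a log2 ratio of 0.5 towards the perfused library and 1 past it towards the unperfused, where 6.78% and 13.5% of the 15320 genes with at least 100 UMIs were. Outside IMM and STROMA it was 4 and 4 of 13, against a background of 3.22% and 15.1% of 14687 genes. There ND3 (0.94), COX2 (0.66), COX3 (0.63) and ATP6 (0.55) were higher in the perfused library. ND6 (11.0 and 3.23 CPM, -1.78), ND5 (39.2 and 22.0 CPM, -0.83), ATP8 (-0.58) and ND2 (26.9 and 18.6 CPM, -0.53) were lower, COX1 was at -0.18 (-0.23 to -0.13), and ND4 was at -0.09 with an interval that included 0. The set sum outside IMM and STROMA is thus a balance of members that were higher and members that were lower. Divided by gene length, COX3 had 338.6 CPM per kilobase before and 1128 after perfusion, COX2 262.8 and 829.8, and COX1 222.9 and 418.4. ATP6 had 141.5 and 492.7, ND5 25.5 and 31.6, and ND6 22.9 and 9.92. UMIs of 3′ chemistry count molecules whatever their length, so these quotients are not RNA levels. COX1 was above ATP6 per kilobase in the unperfused library and below it in the perfused one. In CPM, COX1 was above ATP6 in both (344.4 against 96.4, and 646.4 against 335.6).

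**Figure D2:**
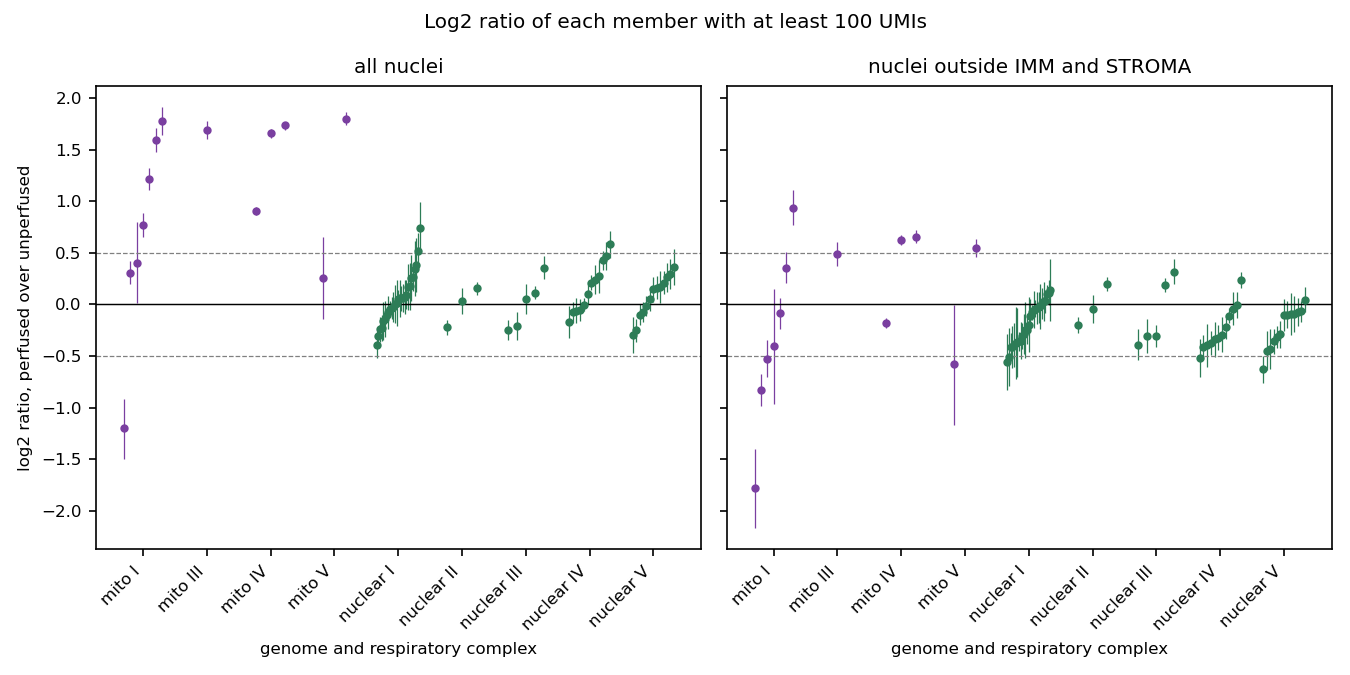
Log2 ratio of perfused over unperfused CPM of the members with at least 100 UMIs, in all nuclei and outside IMM and STROMA, with exact 95% intervals. Nuclear encoded members lie between -0.39 and 0.75 in all nuclei, while the mitochondrially encoded members reach from -1.20 to 1.80.

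The make-up of the mitochondrial RNA differed in the same way from class to class. COX1 took 30.3% of the mitochondrial UMIs of the members in the unperfused (29.8% to 30.8%) and 21.5% in the perfused library (21.2% to 21.7%). Its share was lower in the perfused library in 13 of 13 classes, and in 10 of them the 95% intervals did not overlap. The highest unperfused COX1 shares were those of PC (39.2%), IC-A (37.4%) and IC-B (37.0%), and these were at 25.1%, 24.4% and 25.6% in the perfused library. COX3 took 23.4% and 29.4% over all nuclei and was higher in 13 of 13 classes, with intervals apart in 7. COX2 took 15.9% and 19.0% and was higher in 12 of 13 classes, with intervals apart in 8 and cycling nuclei as the exception. The 3 genes of complex IV thus did not keep 1 ratio to each other, and COX1 differed from COX2 and COX3 even where the set sum was lower. All 13 classes come from the same 2 libraries, and free mitochondrial RNA of a library could reach each of them. Agreement between classes, here and for the members below, is thus not replication.

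ND5 and ND6 were the other members whose share was lower in every class. The ND5 share was 4.09% and 1.91%, lower in 13 of 13 classes and with intervals apart in 8. The ND6 share was 1.06% and 0.174%, lower in 13 of 13 classes and with intervals apart in 6. In PC it was 2.56% (64 UMIs in 38 nuclei) and 0.385% (3 UMIs in 2 nuclei). ND6 was found in 271 unperfused and 124 perfused nuclei, with at most 7 UMIs in 1 nucleus, so its lower level was not set by a few unperfused nuclei. Whether reads were assigned by strand is not given in the sources used here, so for ND6, whose strand lies opposite that of the other members, the level is uncertain. ND2 was lower in 11 of 13 classes (5 apart), ND4 in 12 (1 apart), and ND3 and ATP6 were higher in 11 (2 and 3 apart). ND1 and CYTB split 7 to 6 and 9 to 4, with no class in which the intervals were apart.

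The nuclear encoded members kept close to the middle of all genes. Of the 60 with at least 100 UMIs, 3 were past a log2 ratio of 0.5 towards the perfused library, or 5%, and 0 towards the unperfused, against the same 6.78% and 13.5% of all genes. These 3, named after their values were seen, were NDUFB10 of complex I (8.43 and 14.1 CPM, 0.75), COX5B of complex IV (29.7 and 44.5 CPM, 0.59) and NDUFS5 of complex I (16.6 and 23.7 CPM, 0.52). The median log2 ratio of the 60 was 0.06, and that of all 15320 genes was -0.04. On the lower side, NDUFA5 of complex I was at 41.1 and 31.4 CPM (-0.39) and NDUFB9 of complex I at 91.6 and 74.1 CPM (-0.31). By complex, the summed log2 ratio was -0.03 for complex I, 0.00 for complex II, 0.04 for complex III, 0.15 for complex IV and 0.05 for complex V. Scaling by TMM or DESeq2 factors in place of CPM shifts these by 0.10, so that the nuclear set stood at 0.14 under both.

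The members with the most UMIs in each complex showed how small these differences were. NDUFS4, an accessory subunit of complex I, was at 130.8 and 122.2 CPM (-0.10), and NDUFV2, a subunit of the NADH-oxidising module, at 101.5 and 98.7 CPM (-0.04). SDHB, the iron-sulfur subunit of complex II, was at 144.4 and 160.9 CPM (0.16), and SDHC, one of its membrane anchors, at 115.1 and 98.6 CPM (-0.22). UQCRC2, a core subunit of complex III, was at 133.7 and 144.9 CPM (0.12), and UQCRQ of the same complex at 65.4 and 55.0 CPM (-0.25). COX5A was at 106.0 and 122.6 CPM (0.21) and NDUFA4, now counted with complex IV, at 134.0 and 133.9 CPM (0.00). In complex V, ATP5MG was at 66.4 and 63.0 CPM and ATP5F1C, the central stalk subunit gamma, at 61.4 and 60.8 CPM, both with intervals that included 0.

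Outside IMM and STROMA, the nuclear encoded members were mostly lower in the perfused library. There 49 of 60 were below 0, against 9068 of 14687 genes, and their median was -0.21 against -0.08. Of the 60, 4 were past a log2 ratio of -0.5 (6.67%, background 15.1%) and 0 past 0.5 (background 3.22%). Named after their values were seen, the 4 were ATP5MD of complex V (51.1 and 33.0 CPM, -0.63), NDUFA1 of complex I (11.8 and 8.02 CPM, -0.56), COX6A1 of complex IV (24.6 and 17.2 CPM, -0.52) and NDUFA2 of complex I (10.6 and 7.45 CPM, -0.51). The summed ratio was -0.22 for complex V, -0.14 for complex IV and -0.12 for complex I, and 0.01 for complex III and 0.03 for complex II, both with intervals that included 0.

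In PT and LOH, the share of nuclear members past the fold was near or below the background. In PT the nuclear set was at 2522 and 2351 CPM, for a log2 ratio of -0.10 (-0.13 to -0.07) that became 0.01 with DESeq2 factors. Of 58 members, 4 were past the fold towards the unperfused library (6.90%, background 11.6%) and 0 towards the perfused (background 2.39%), while 8 of 10 mitochondrial members were past it towards the perfused. The 4 were NDUFB9 (141.8 and 93.8 CPM, -0.60), NDUFA1 (8.79 and 5.93 CPM, -0.57), NDUFA2 (7.31 and 4.96 CPM, -0.56, -1.15 to 0.01) and ATP5MD (56.6 and 38.8 CPM, -0.54). In LOH the set was at 3260 and 3098 CPM (-0.07), which turned to 0.06 with TMM and 0.07 with DESeq2 factors. Of 55 members, 5 were past the fold downwards (9.09%, background 9.92%) and 0 upwards (background 2.77%), with COX7B at 64.8 and 43.3 CPM (-0.58), COX7C at 66.3 and 45.1 CPM (-0.56), and ATP5MD, NDUFA1 and NDUFA5 between -0.55 and -0.51. Of the mitochondrial members in LOH, ND3 (1.21), COX3 (0.80) and ATP6 (0.57) were past it upwards and ND5 (-0.58) downwards.

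The distal nephron and collecting duct differed among themselves in the nuclear set. DCT was at 3461 and 3277 CPM (-0.08, -0.14 to -0.02), with an interval that included 0 under TMM and DESeq2 factors, and CNT at 2599 and 2295 CPM (-0.18). IC-A was at 3836 and 3380 CPM (-0.18, -0.24 to -0.12), IC-B at 3454 and 2800 CPM (-0.30, -0.40 to -0.21) and PC at 2961 and 2112 CPM (-0.49, -0.58 to -0.40). In PC the scaling factors shift all ratios by 0.16 (TMM) and 0.15 (DESeq2), which left the set at -0.33 and -0.34. Complexes IV and V were lower by the most, with -0.75 and -0.62 in PC, -0.30 and -0.40 in IC-A and -0.43 and -0.41 in IC-B, against -0.34, -0.09 and -0.25 for complex I. So in these classes the nuclear and the mitochondrial sets were lower together, and the mitochondrial UMIs per nuclear encoded UMI were 1.14 and 0.451 in PC, 0.464 and 0.206 in IC-A and 0.501 and 0.211 in IC-B. In PT the same quotient was 0.209 and 0.456.

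EC, like PT, LOH, DCT and CNT, had nuclear and mitochondrial sets of opposite sign in CPM. With TMM or DESeq2 factors the nuclear set was above 0 in LOH, and its interval included 0 in PT and DCT. In EC the nuclear set was at 2262 and 1918 CPM (-0.24, -0.30 to -0.18). It was at -0.11 and -0.09 with the TMM and DESeq2 factors, which shift EC by 0.13 and 0.14. Of 45 members, 8 were past the fold downwards (17.8%, background 11.2%) and 0 upwards (background 3.25%). Of the mitochondrial members, 5 of 10 were past it upwards, with COX3 at 347.9 and 599.7 CPM (0.79), and ND5 downwards (74.1 and 47.6 CPM, -0.64). ATP5MD was at 59.6 and 29.7 CPM (157 and 60 UMIs, -1.004, -1.46 to -0.57), and UQCRQ at 37.2 and 20.3 CPM (-0.87). ATP5F1A, the catalytic-head subunit alpha, was at 59.6 and 35.2 CPM (-0.76), and ATP5MC1, a gene of the c ring, at 28.5 and 16.4 CPM (-0.80). COX7A1 was at 32.3 and 13.9 CPM and is described with its paralogue. The remaining 3 were NDUFA5, NDUFA8 and NDUFB2 of complex I, at -0.60, -0.60 and -0.55, the last with an interval that included 0. Complex V was thus lower by the most (-0.43, -0.57 to -0.30), and complex III was at 0.03.

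The nuclear set was higher, with an interval above 0, in STROMA and IMM. Cycling nuclei were the other class above 0, at 2273 and 2606 CPM (0.20), with an interval that included 0. In STROMA it was at 2600 and 3588 CPM (0.46, 0.41 to 0.52, and 0.10 with a mitochondrial limit of 1%), and 22 of 50 members were past the fold upwards (44%, background 12.7%) and 0 downwards (background 11.1%). They made up 9 of 12 members of complex V, 6 of 12 of complex IV, 6 of 18 of complex I, 1 of 5 of complex III and 0 of 3 of complex II. COX8A, a small subunit of complex IV, was at 47.6 and 108.6 CPM (1.19, 0.80 to 1.60). NDUFB10 was at 14.9 and 32.8 CPM (20 and 87 UMIs, 1.14), and the c ring genes ATP5MC1 and ATP5MC2 at 29.8 and 61.1 CPM (1.04) and at 33.5 and 67.5 CPM (1.01). At the other end NDUFA5 (-0.38), UQCRC2 (-0.27) and NDUFB2 (-0.25) had intervals that included 0. Among all 53 cytosolic ribosomal protein genes tested there, 52 were past the fold upwards. The nuclear set was at -0.13 (-0.40 to 0.15) in the 43 unperfused and 47 perfused STROMA nuclei with no UMI of a marker of another lineage, and PT markers in the class summed to 1551 and 663.6 CPM. With free RNA subtracted it was at 0.56.

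In IMM the nuclear set was at 5072 and 6374 CPM (0.33, 0.26 to 0.40), and 13 of 47 members were past the fold upwards (27.7%, background 12.9%) and 0 downwards (background 9.64%). UQCR10 of complex III was at 58.0 and 117.4 CPM (1.02), ATP5MC2 at 58.0 and 109.4 CPM (0.92) and COX5B at 115.9 and 215.6 CPM (0.90). SDHC (-0.25), NDUFS1 (-0.20) and NDUFV2 (-0.17), the lowest, had intervals that included 0. IMM held 465915 UMIs before and 1507741 after perfusion, so members and background genes could pass the filter mainly through the perfused library. Of the cytosolic ribosomal protein genes, 43 of 53 were past the fold upwards in the same nuclei. The finer clusters of IMM differed in this. The nuclear set was at 7229 and 7862 CPM (0.12, 0.04 to 0.20) in the cluster of 134 and 512 nuclei. In that of 112 and 187 nuclei it was at 2859 and 2751 CPM (-0.06, -0.20 to 0.08). With a mitochondrial limit of 1% the ratio of the class was -0.32, and in the 28 and 43 nuclei without a marker of another lineage -0.51. TMM and DESeq2 factors, which shift IMM by 0.23 and 0.21 and STROMA by 0.14 and 0.13, gave 0.56 and 0.54 in IMM and 0.60 in STROMA.

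**Figure D3:**
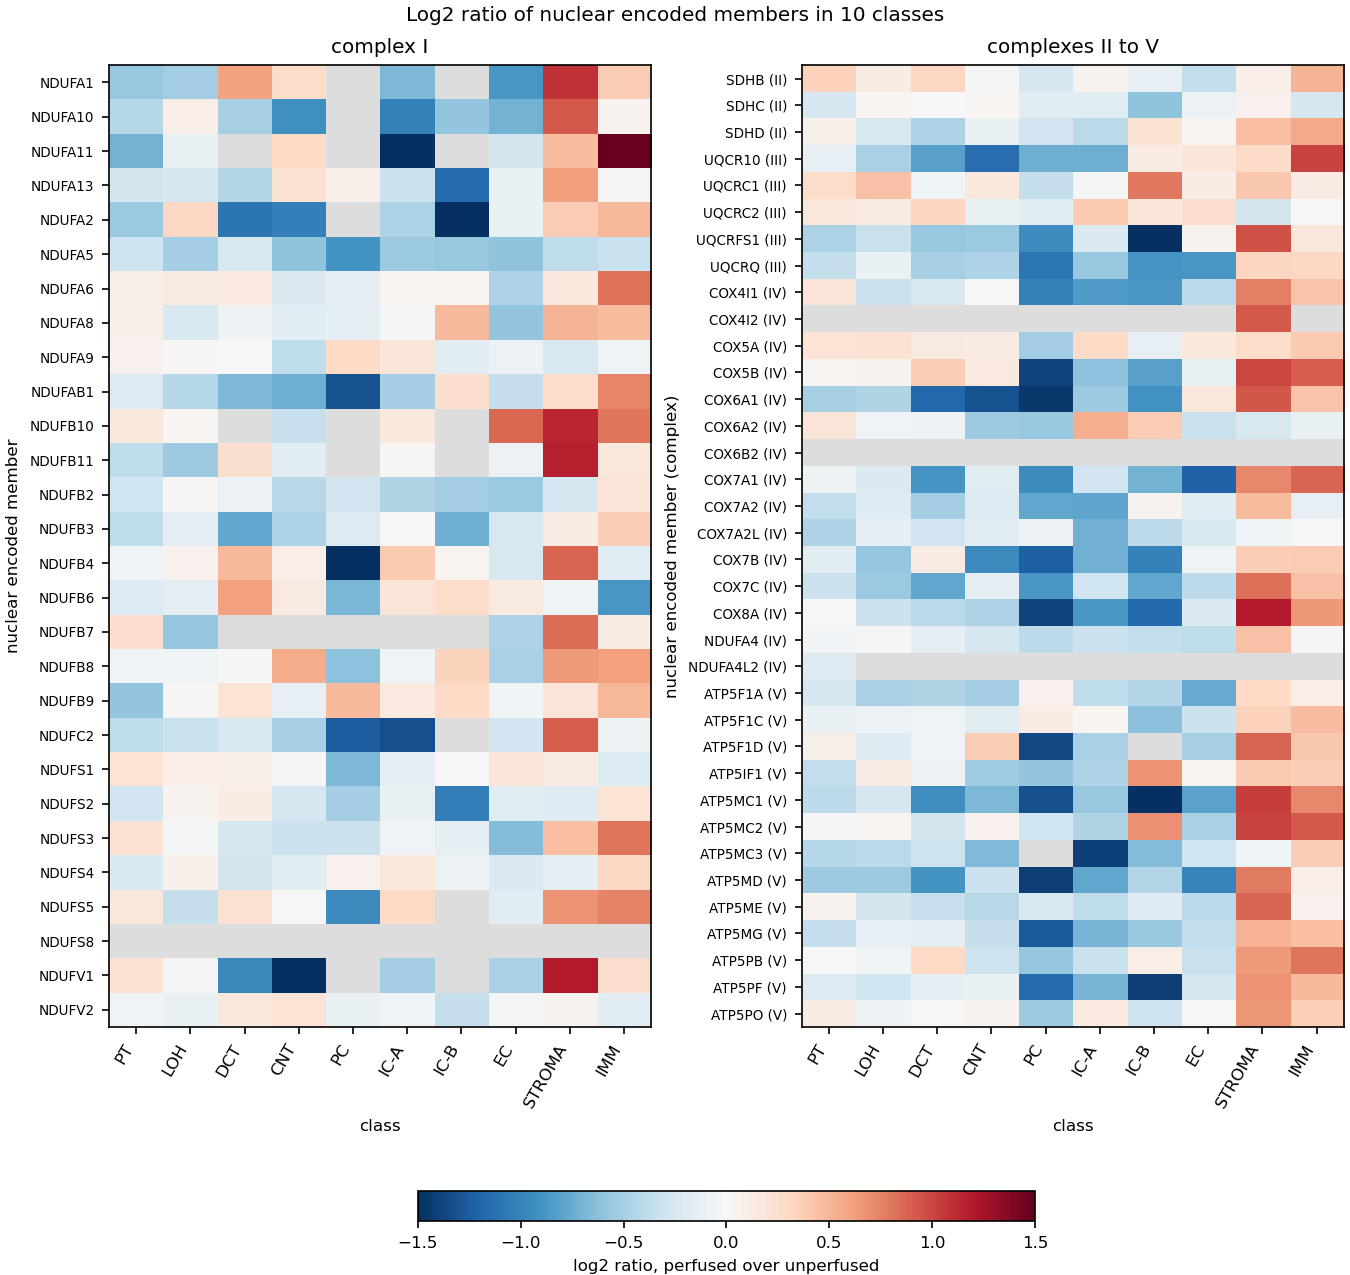
Log2 ratio of each nuclear encoded member in 10 classes, complex I on the left and complexes II to V on the right, blue for lower and red for higher in the perfused library, with the colour scale ending at 1.5 either way and grey where both libraries together had under 20 UMIs. The STROMA and IMM columns are mostly red, with 22 of 50 and 13 of 47 members past 0.5, and complexes IV and V are mostly blue in PC.

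Among the 13 classes, IMM rather than a tubule class had the highest level of most members, but not in all of its finer clusters. IMM had the highest CPM of any class for 35 of 60 nuclear encoded members in the unperfused and 43 of 60 in the perfused library, where it was the highest class for 13.2% and 13.6% of all genes. It was the highest class for 11 and 13 of the 13 mitochondrial members. COX4I1, the main form of subunit 4 of complex IV, was at 332.7 and 447.0 CPM in IMM and at 59.9 and 65.8 CPM in all other nuclei. COX8A was at 148.1 and 232.8 CPM in IMM and at 28.0 and 30.3 CPM elsewhere, and NDUFB7 at 55.8 and 60.4 against 7.17 and 7.54 CPM. IMM is also the class with the lowest UMI count per nucleus and the most cytosolic ribosomal protein RNA. At the finer clustering, the nuclear set was at 7229 and 7862 CPM in the IMM nuclei then named STROMA. It was at 2859 and 2751 CPM in those still named IMM. LOH (3260 and 3098 CPM), DCT, IC-A and IC-B were above the latter in both libraries. PT (2522 and 2351 CPM), injured PT and CNT were below, and PC was above only in the unperfused library.

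Within the tubule, the named members set the segments apart by less than that. IC-A was the highest class for 8 and 6 of the 60 nuclear members, and for 6.33% and 6.25% of all genes. COX5A (170.3 and 209.8 CPM in IC-A, 163.2 and 190.6 in LOH), NDUFA9 (70.8 and 80.5, 66.6 and 67.3) and UQCRC2 (209.0 and 273.4, 200.2 and 217.5) were the members with the largest excess over other nuclei in both IC-A and LOH. In DCT these were NDUFB6 (85.4 and 130.9 CPM against 50.7 and 47.9 elsewhere), NDUFS3 and ATP5F1C. In PT, SDHC was at 158.4 and 133.5 CPM against 88.7 and 83.3 elsewhere, and NDUFB9 at 141.8 and 93.8 against 61.0 and 65.5. PODO had NDUFB9 at 208.0 and 304.7 CPM, from 88 and 68 UMIs. In EC the members with the largest excess, COX7A2L, COX6A1 and ATP5IF1, the inhibitor of the ATP synthase, exceeded other nuclei by log2 folds of at most 0.43. These classes were clustered without the members, so counts of the members did not enter the clustering. Only the members were left out, so genes that vary with them could still shape the classes.

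Complex IV has subunits with tissue-specific paralogues, and their ratios depended on the class. COX4I2, a paralogue of COX4I1 known from oxygen-sensing and contractile tissue, took 5.95% of the UMIs of the pair in unperfused STROMA (11 of 185, 3.01% to 10.4%) and 6.59% in perfused STROMA (41 of 622, 4.77% to 8.84%). Outside IMM and STROMA it took 0.570% and 0.987% (8 of 1404 and 11 of 1114 UMIs), so the share was higher in STROMA in both libraries and its 2 values there were within each other's interval. NDUFA4L2, a hypoxia-regulated paralogue of NDUFA4, took 1.11% and 1.06% of that pair over all nuclei.

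COX6A2 and COX7A1 are known as the heart and skeletal muscle forms of subunits 6a and 7a. Yet COX6A2 took 64.2% of the COX6A UMIs in unperfused PT (60.4% to 67.9%) and 74.1% in perfused PT (70.1% to 77.7%). In LOH it took 66.2% and 72.0%, and in IC-A 53.8% and 71.2%, with overlapping intervals in both. In STROMA it took 41.3% (31.9% to 51.1%) and 23.7% (19.2% to 28.8%), and in IMM 18.8% and 13.8%. The share was thus higher in the perfused library in PT and lower in STROMA, and it was higher in the tubule than in IMM in both libraries.

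COX7A1 took 27.6% and 32.3% of the UMIs of COX7A1 and COX7A2 over all nuclei. In EC it took 36.5% (85 of 233, 30.3% to 43.0%) and 21.9% (28 of 128, 15.05% to 30.04%), and in IMM 29.2% (35 of 120, 21.2% to 38.2%) and 45.2% (208 of 460, 40.6% to 49.9%). In STROMA it took 34.1% and 38.0%, and in PT 23.7% and 27.5%, with overlapping intervals. The intervals of EC and of IMM were apart, in opposite directions. UMIs of near-identical paralogues can be split or lost in the counting, so these shares are uncertain as absolute values.

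**Figure D4:**
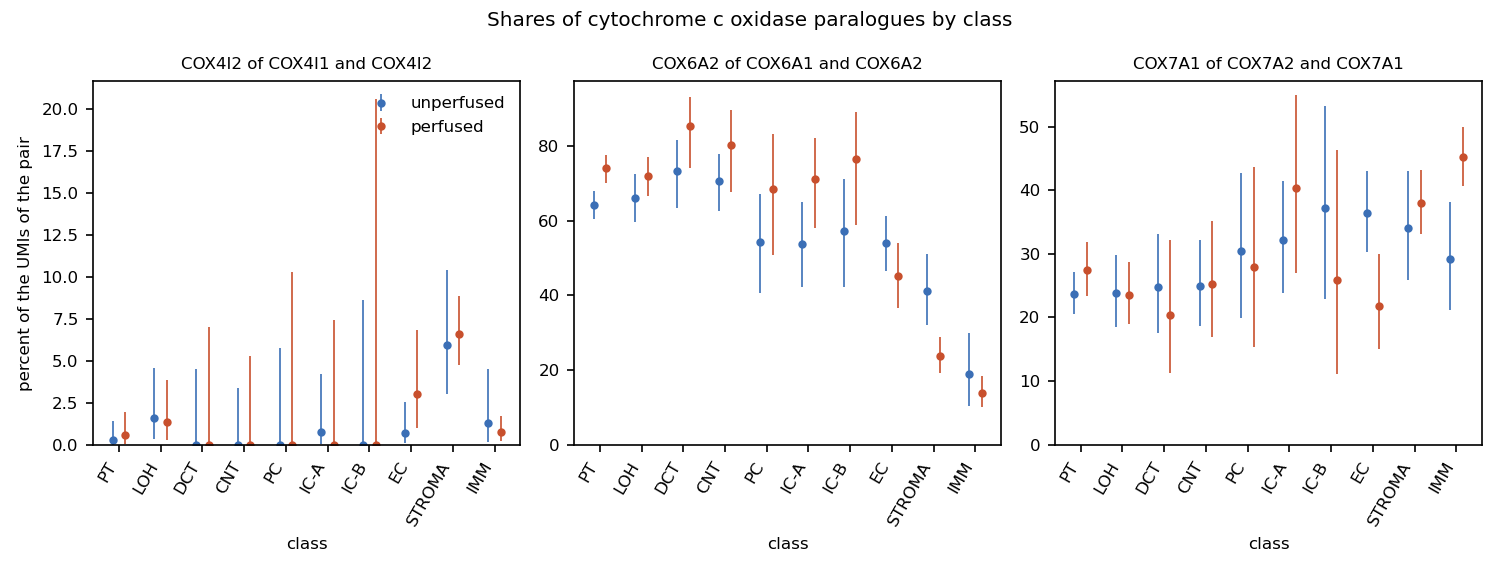
Share of COX4I2, COX6A2 and COX7A1 in the UMIs of their paralogue pair by class, in percent, for the unperfused and the perfused library with exact 95% binomial intervals. COX6A2 takes more than COX6A1 in PT (64.2% and 74.1%) and less in IMM (18.8% and 13.8%), and COX7A1 is lower after perfusion in EC and higher in IMM.

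Genes that serve the complexes without being part of them differed less than the mitochondrial members. Of 31 assembly factors tested over all nuclei, 0 were past the fold upwards and 2 downwards, COX19 of complex IV assembly (8.17 and 3.17 CPM, 218 and 86 UMIs, -1.36) and NDUFAF4 of complex I assembly (-0.52), where 6.78% and 13.5% of all genes were. COX19 was also low in PT (8.60 and 3.51 CPM, -1.29). Of 14 genes for the copying, transcription and processing of mitochondrial DNA and RNA, 0 were past the fold in either direction, and they summed to 420.5 and 412.4 CPM. In IC-A, where the mitochondrial RNA was lower, they summed to 441.4 and 512.0 CPM (0.21, 0.05 to 0.38). Of 67 mitochondrial ribosomal protein genes, 0 were past it upwards and 3 downwards (1639 and 1536 CPM), while 35 of 57 cytosolic ones were past it upwards and 0 downwards. Outside IMM and STROMA, 0 of 57 cytosolic ribosomal protein genes were past it upwards and 3 downwards.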

How the data were processed

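Single-nucleus RNA sequencing (10x Genomics, 3′ chemistry) of pig renal cortex was read from 2 libraries, 1 unperfused and 1 perfused. Per the submitters' processing notes and the study's methods, the authors aligned reads with Cell Ranger 5.0.1 to the Ensembl pig genome of release 103, counted introns too, and deposited raw UMI counts of each gene in each barcode, from before their filters and, as the whole numbers were taken to show, before SoupX. Here, barcodes were kept if 500 to 6000 genes were detected and no more than 7% of UMIs were mitochondrial, a limit that itself uses the members. Doublets called by Scrublet (scanpy 1.11.5) were removed. The libraries shared 14 barcode sequences.

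Nuclei were integrated and clustered in Seurat 5.3.0 (R 4.3.3) on 2000 variable genes without the members, with 30 anchor dimensions, 15 components and a resolution of 0.5. A cluster took the class with the highest mean marker fold when at least 3 markers had a log2 fold over 1. UMIs were summed by class and library (Python 3.11.15, numpy 2.4.6, scipy 1.17.1). Genes needed 100 UMIs over both libraries, a log2 ratio of 0.5 was the fold, and no ratio was given where both libraries had at most 3 UMIs. Lengths of the mitochondrial genes came from the RefSeq gene table (Sscrofa11.1). The calculation was tested on simulated counts.

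Named genes were the mitochondrial members, the paralogue pairs, the 3 members with the largest ratio each way in all nuclei, PT, LOH, EC, STROMA and IMM, the 2 with the highest CPM per complex, the 3 with the largest excess per class, and genes of a list under discussion. Other nuclear members given as past the fold in a class were chosen after their values were seen. Members and lists were chosen with earlier results of these data known. Of the 19 alternatives, 16 were planned and 3 were added after seeing the data. TMM factors came from edgeR 4.0.16 and size factors from DESeq2 1.42.0.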

Additional observations from a re-analysis of the deposited data

Results flagged for a closer look

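Some classes stood apart from the others in direction, and none of these differences between classes was tested. The mitochondrial set was higher in the perfused library over all nuclei and lower in PC (-1.83), IC-A (-1.36) and IC-B (-1.55). The nuclear set was lower in most classes and higher in STROMA (0.46) and IMM (0.33). Of the members named by the largest ratios, 5 had opposite signs in EC and STROMA with intervals that excluded 0 in both. They were picked by their ratios in these data, and the share of all genes with such opposite signs is not given. The count thus shows nothing particular to the members. ATP5MD was at -1.0 in EC and 0.78 in STROMA, COX7A1 at -1.22 and 0.72, COX7C at -0.39 and 0.83, the mitochondrial ND5 at -0.64 and 0.66, and NDUFA1 at -0.87 and 1.08. NDUFA1 had 50 and 21 UMIs in EC and 17 and 71 in STROMA, under the 100 asked of a tested gene, so it is not among the members counted as past the fold there.

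The barcodes that the filter on detected genes removed, which no comparison used, also held mitochondrial RNA. In the 79 unperfused barcodes with under 500 genes, the mitochondrial members took 1.235% of UMIs, and in the 192 perfused ones 1.516%, against 0.114% and 0.301% in the nuclei kept.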

How the results depend on the processing

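No paired analysis was possible because each condition has 1 library. Over 19 alternatives, 959 values of 77 results were recomputed. Of these, 683 moved by less than their counting interval, 250 moved further and 26 turned sign. A turn of sign was counted only for results whose main interval excluded 0. Others changed sign without being counted as turned, such as ATP8 over all nuclei (0.25, at lowest -0.58) and the mitochondrial set in injured PT (0.17, at lowest -0.30). The cause of these changes was not tested. The mitochondrial set over all nuclei (1.41) stayed above 0 in each alternative: 1.38 with doublets kept, 1.37 without a mitochondrial limit, 0.55 with a limit of 1%, 1.39 in nuclei with at least 1000 UMIs, 1.66 thinned, 0.20 without nuclei holding a marker UMI of another lineage, 1.51 with TMM and 1.5 with DESeq2 factors, 1.46 without unnamed clusters, 0.29 without IMM and STROMA, 1.48 without the top 5% of nuclei and 0.83 with classes weighted equally. The nuclear set (0.04) was at -0.11 with the 1% limit, 0.12 thinned, -0.12 under the lineage filter, 0.14 with either factor, -0.11 without IMM and STROMA, 0.02 without the top 5% and -0.02 with equal weights. The 3 nuclear members past the fold upwards became 0 with the 1% limit, under the lineage filter, without IMM and STROMA and at a log2 ratio of 1, and 5 thinned or with either factor. The 0 downwards became 1, 8 and 4 under the first 3 of these. The classes with a higher nuclear set were 3 (STROMA, IMM and cycling nuclei), 4 with free RNA subtracted, 1 with the 1% limit, 0 under the lineage filter, 5 with TMM and 7 with DESeq2 factors. Those 7 include injured PT (0.01) and PODO (0.06), whose main intervals included 0. Sign also turned for the nuclear set in PT (0.01, DESeq2) and LOH (0.06 and 0.07, TMM and DESeq2). Under the lineage filter it turned for the nuclear set in STROMA (-0.13) and IMM (-0.51), ATP6 (-0.19) and UQCRQ (0.14) in EC, ND1 in IMM (-0.05), and over all nuclei COX1 (-0.29), ND2 (-0.52), ND4 (-0.12), ND4L (-0.40) and ND5 (-1.0). With the 1% limit it turned for the nuclear set in IMM (-0.32), ND2 (-0.26), ND4L (-0.22) and ND5 (-0.50), and without IMM and STROMA for COX1 (-0.18), ND2 (-0.53), ND4 (-0.09), ND4L (-0.41) and ND5 (-0.83). Leaving out IMM and STROMA, leaving out the top 5% of nuclei and filling in missing symbols were chosen after seeing the data. With free RNA subtracted, 46 of 57 values kept within their interval, 11 moved further and 0 with an interval apart from 0 turned sign. Cycling nuclei gave no value under the lineage filter, which left 28 and 43 IMM, 43 and 47 STROMA and 2 and 1 PODO nuclei.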

Other observations

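Transcription factors and coactivators of mitochondrial biogenesis also differed between the libraries in several classes. In STROMA, where both sets of members were higher, 4 of the 7 regulators tested were past the fold downwards, where 11.1% of all genes were. ESRRG, an estrogen-related receptor, was at 247.7 CPM before and 87.5 after perfusion (-1.501, -1.75 to -1.25), PPARGC1A, the coactivator PGC-1 alpha, at 152.5 and 65.3 CPM (-1.22), ESRRB at 78.8 and 40.7 CPM (-0.95) and PPARA at 147.3 and 85.3 CPM (-0.79). PT markers summed to 1551 and 663.6 CPM and LOH markers to 1078 and 917.1 CPM in the same nuclei. Free tubule RNA was estimated at 27.6% and 16.4% there. ESRRB was at 8.40 and 5.08 CPM in PT and at 1717 and 1908 CPM in LOH. The part of tubule RNA in the STROMA values was not tested. In IC-A, where the mitochondrial set was lower, ESRRG was at 3578 and 5499 CPM (0.62, 0.57 to 0.67), while PPARGC1A was at 1911 and 1639 CPM (-0.22) and PPARA at 803.3 and 622.3 CPM (-0.37). In IC-B, ESRRG was at 1926 and 2912 CPM (0.60) and PPARGC1A at 1246 and 1534 CPM (0.30). Other regulators differed there too, such as PPARD (0.71), and in IC-A PPARGC1B was at -0.66. For IC-A and IC-B no share of all genes is given. ESRRG was also higher in DCT (0.54), CNT (0.39) and PT (0.34), where the mitochondrial set was higher. In LOH, PPARGC1A was at 1844 and 2186 CPM (0.25), and 1 of 9 regulators tested was past the fold, downwards (background 9.92%). In IMM, PPARGC1A was at 75.1 and 114.7 CPM (0.61) and ESRRG at 137.4 and 81.6 CPM (-0.75). They were the 1 of 5 tested past the fold each way, where 12.9% and 9.64% of all genes were. In EC, PPARA (16.7 and 34.7 CPM, 1.05) and ESRRG (24.7 and 39.1 CPM, 0.67) were past the fold upwards, 2 of 8 tested, where 3.25% of all genes were. Free tubule RNA was estimated at 10.8% and 10.5% of UMIs in EC and at 31.3% and 29.1% in IMM. ESRRG was at 1874 and 1992 CPM in LOH. The part of tubule RNA in the EC and IMM values was not tested. Over all nuclei, ESRRA was the 1 of 10 regulators past it downwards (13.2 and 9.19 CPM, -0.53), against 13.5% of all genes.

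Pathways that feed the complexes differed little over all nuclei. Of 14 genes of the citric acid cycle and 15 of fatty acid oxidation, 0 were past the fold in either direction, and of 11 glycolytic genes 2 were past it upwards, ALDOA (4.42 and 6.68 CPM, 0.59) and TPI1 (12.6 and 18.7 CPM, 0.57), where 6.78% of all genes were. In PT the citric acid cycle genes DLD (72.5 and 45.6 CPM, -0.67) and IDH3B (7.11 and 4.11 CPM, -0.79), 2 of 14, were past it downwards, where 11.6% of all genes were. In EC, 3 of 12 fatty acid oxidation genes were past the fold downwards, with ACADS at 61.5 and 34.2 CPM (-0.85), where 11.2% of all genes were. Glycolytic genes were past it upwards in STROMA (3 of 7, background 12.7%) and IMM (3 of 6, background 12.9%), the same 3 in both: ENO1 at 1.16 and 0.69, TPI1 at 1.56 and 0.91, and PGAM1 at 0.58 and 0.90.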
